A study of Mus musculus with 36 samples.

Results

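Genes of the MHC class II antigen presentation pathway were followed in liver RNA from young and old mice before and during regeneration. The 7 genes were the rows of the count tables named H2-Aa, H2-Ab1, H2-Eb1, H2-DMa, H2-DMb1, Cd74 and Ciita, out of 21955 rows listed, and all 7 were among the 13436 rows with enough counts to be tested. The mice were C57BL/6JN, an inbred strain, with 4 months as the young and 18 months as the old age. Livers were taken before regeneration and at time points labelled 48, 72, 96, 120 and 240, with 3 biological replicates for each age at each time, which made 12 groups and 36 libraries. The labels give no unit for the time points, no genotype and no account of how regeneration was started, and they name the old mice as the treated group.

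MHC class II molecules are pairs of an alpha and a beta chain that carry peptides from engulfed proteins to the cell surface, where CD4+ T cells read them. The pair is built around the invariant chain, which is then cut away in endosomes, and the DM proteins exchange its last fragment for a peptide. B cells, dendritic cells and activated macrophages, among them the Kupffer cells of the liver, are the usual carriers. Most other cells make class II only after interferon gamma, and Ciita is the switch that turns the whole set on from shared promoter elements.

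H2-Aa encodes the alpha chain and H2-Ab1 the beta chain of the I-A molecule, and H2-Eb1 encodes the beta chain of I-E. In the GRCm38.p6 annotation of RefSeq these genes lie on chromosome 17, at 34282744 to 34287823 for H2-Aa, 34263227 to 34269418 for H2-Ab1 and 34305867 to 34316674 for H2-Eb1. The DM genes lie on the same chromosome, H2-DMa at 34119693 to 34139101 and H2-DMb1 at 34153191 to 34160229. Ciita lies on chromosome 16 at 10480014 to 10531064. The alpha chain gene of I-E is a pseudogene in this strain background, and its row, H2-Ea-ps, was at a count of 0 in 32 of the 36 libraries.

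Class II genes are known for shared promoter elements, and the promoters of the members are shown where the RefSeq table of GRCm38.p6 holds them, which was the case for 4 of the 7 genes. The elements searched, chosen after these promoters were read, were an X box core, CTNGNAACT, and a Y box core, GATTGG, on both strands of windows from 250 bases before to 50 bases after a transcript start. The X core was in 4.10% and the Y core in 16.1% of 32851 such windows. An X core followed on the same strand by a Y core within 40 bases was found in 12 windows, 0.0365% of all, and 3 of these belonged to H2-Aa, H2-Eb1 and H2-DMb1. In each the gap was 25 or 26 bases. The 150 bases before the start follow, 5′ to 3′ in the direction of transcription, at chr17:34287824-34287973 on the minus strand for H2-Aa, chr17:34305717-34305866 on the plus strand for H2-Eb1 and chr17:34153041-34153190 on the plus strand for H2-DMb1, with the X and then the Y core in capitals.
H2-Aa: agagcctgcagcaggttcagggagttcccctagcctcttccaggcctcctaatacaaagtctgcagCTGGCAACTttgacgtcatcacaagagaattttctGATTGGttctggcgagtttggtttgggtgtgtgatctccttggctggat
H2-Eb1: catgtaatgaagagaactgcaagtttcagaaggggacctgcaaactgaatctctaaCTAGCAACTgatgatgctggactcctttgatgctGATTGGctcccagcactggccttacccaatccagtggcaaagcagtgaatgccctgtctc
H2-DMb1: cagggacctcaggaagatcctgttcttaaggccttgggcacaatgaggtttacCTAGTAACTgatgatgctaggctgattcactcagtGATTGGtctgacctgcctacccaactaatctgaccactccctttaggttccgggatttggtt
The X core began 84, 94 and 97 bases before the start and the Y core 49, 60 and 62 bases before it, in that order of genes. Neither window of H2-DMa held these letters of the X core, and 1 of them held the Y core. A match is a description of letters, not of a bound factor.

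Total counts per library ran from 2328233 to 6034446 with a median of 4439170, and values below are counts scaled to a common library size as CPM, with library sizes adjusted by the TMM method. Hepatocyte genes were abundant in all libraries, and Alb, the albumin gene, stood at 4057 to 10940 CPM. In the old group at 48 it was at 4768 and 4057 CPM in replicates 1 and 2 and at 9078 CPM in replicate 3. Y-linked transcripts summed to 180.4 to 308.6 CPM in 12 libraries, 1 in each group, and to at most 0.21 CPM in the others, so this split cuts across age and time.

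Cd74, the invariant chain, was the most abundant of the 7 per kilobase of exon, at a mean of 20.7 CPM per kilobase over the 36 libraries. The classical chains followed with 7.96 for H2-Eb1, 7.84 for H2-Ab1 and 5.38 for H2-Aa on the same scale. The loading factor genes H2-DMa and H2-DMb1 stood at 1.17 and 0.97, and the transactivator gene Ciita was lowest at 0.62 CPM per kilobase. The length was the union of all annotated exons, 9535 bases for Ciita, and the order depends on it. In CPM Ciita averaged 5.94, above H2-DMa at 4.04 and H2-DMb1 at 1.63. H2-DMb1 had 3 counts or fewer in 7 libraries, so its single values are coarse.

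**Figure D1:**
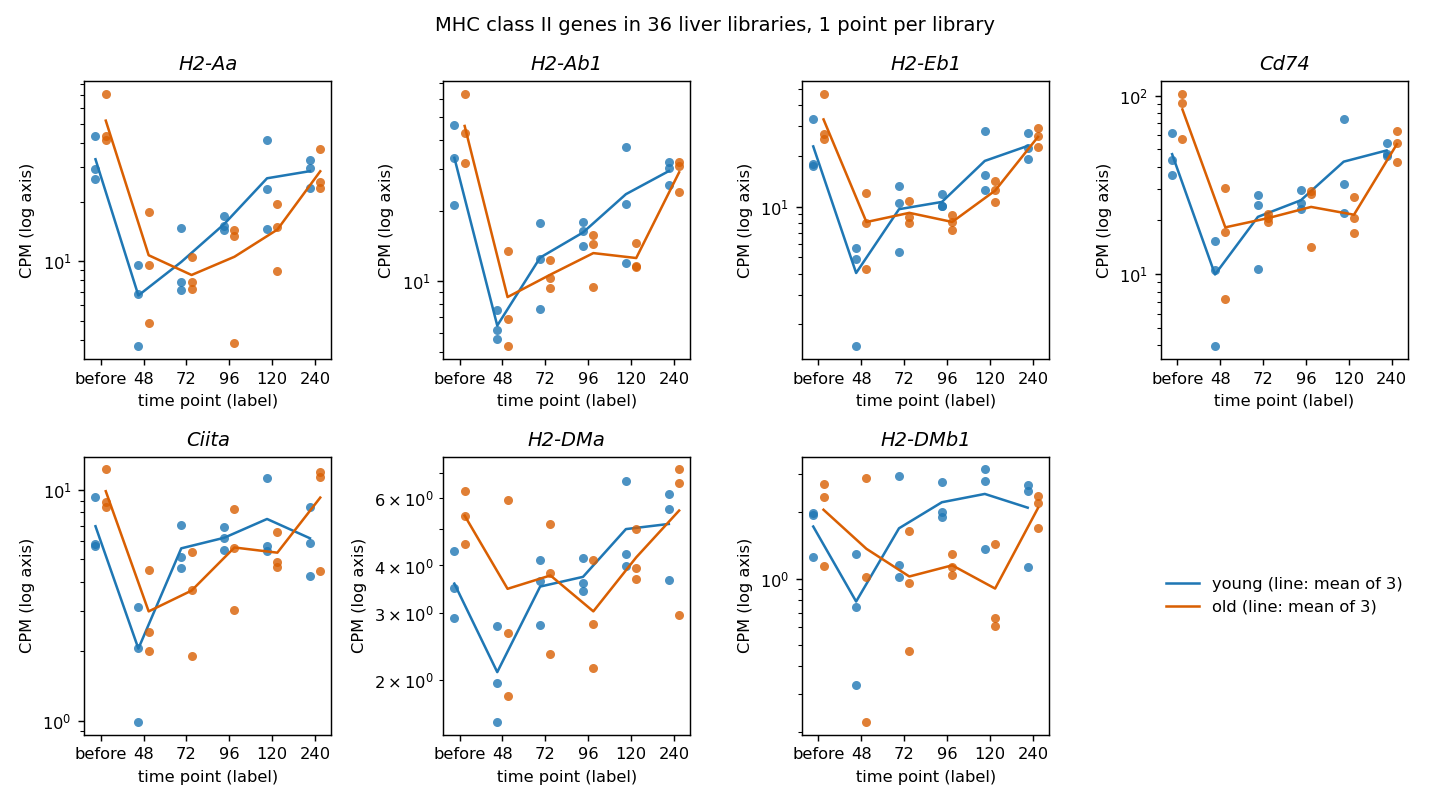
CPM of the 7 class II genes (log axis) by time point, with 1 point per library, blue for young, orange for old, and lines through the means of 3. In both ages the points of H2-Aa, H2-Ab1, H2-Eb1, Cd74 and Ciita at 48 lie below all points before. The same held for 20.8% of all tested genes in the young and 16.6% in the old. At 120 the points of the 5 genes in the old lie below, as held for 10.9% of all tested genes, while those of the young overlap with before.

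At 48 the classical chains, the invariant chain and Ciita were lower than before in both ages. The 5 genes fell to between 17.7% and 30.1% of their mean before, while H2-DMa and H2-DMb1 did not pass the test in either age. In these whole-liver libraries fewer cells that express the genes and less RNA in each such cell cannot be told apart.

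Cd74 stood at 61.4, 36.1 and 43.6 CPM in the 3 young livers before and at 15.4, 10.6 and 3.94 CPM at 48. In the old it stood at 91.1, 102.5 and 57.5 CPM before and at 17.3, 7.29 and 30.3 CPM at 48. In each age all libraries at 48 lay below all before, as held for 20.8% of all tested genes in the young and 16.6% in the old. The lowest young library and the highest old library at 48 were both replicate 3. The log2 change was -2.20 with a standard error (SE) of 0.46 in the young and -2.19 (SE 0.44) in the old, with adjusted p of 0.000877 and 0.000941 by edgeR's quasi-likelihood test with Benjamini-Hochberg adjustment.

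H2-Ab1, the I-A beta chain, was at 46.2, 21.1 and 33.4 CPM in the young before and at 7.52, 6.21 and 5.67 CPM at 48. In the old it was at 42.7, 63.0 and 31.9 CPM before and at 6.89, 5.27 and 13.5 CPM at 48. All 6 libraries at 48 were below all 6 before. Its log2 changes were -2.36 (SE 0.36) in the young and -2.42 (SE 0.35) in the old, with adjusted p of 2.45e-05 and 3.65e-05 by edgeR.

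H2-Aa, its alpha chain partner, was at 43.5, 29.3 and 26.2 CPM in the young before and 6.86, 9.57 and 3.70 CPM at 48. In the old the values were 41.1, 71.0 and 43.4 CPM before and 9.56, 4.86 and 17.8 CPM at 48. As for H2-Ab1, no library at 48 reached the lowest library before. H2-Eb1, the I-E beta chain whose partner is missing, moved likewise, from 33.1, 17.4 and 17.9 CPM to 5.72, 4.92 and 1.48 CPM in the young. In the old it went from 25.1, 46.9 and 26.9 CPM to 8.0, 4.25 and 12.1 CPM. The log2 changes were -2.30 and -2.27 for H2-Aa and -2.46 and -2.02 for H2-Eb1 in young and old, each past the test.

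Ciita stood at 9.36, 5.72 and 5.81 CPM in the young before and at 3.10, 2.07 and 0.986 CPM at 48. In the old it was at 8.45, 12.3 and 8.90 CPM before and at 2.00, 2.43 and 4.5 CPM at 48. The groups were again separate in each age. The log2 changes of -1.70 (SE 0.45) and -1.72 (SE 0.42) had adjusted p of 0.00633 and 0.00411 by edgeR.

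The DM genes had smaller log2 changes. H2-DMa was at 4.37, 3.48 and 2.91 CPM in the young before and 2.78, 1.55 and 1.97 CPM at 48, a log2 change of -0.73 (SE 0.40). In the old it was at 5.40, 6.26 and 4.56 CPM before and 2.67, 1.82 and 5.93 CPM at 48, a log2 change of -0.63 (SE 0.36). The old groups overlapped through replicate 3, and without that library the change was -1.26 with an adjusted p of 0.0176 by edgeR. H2-DMb1 stood at -1.19 (SE 0.63) and -0.56 (SE 0.56) in young and old, and neither change passed the test.

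Old replicate 3 at 48 had the highest value of its group for all 7 genes. It also had more of the macrophage markers, with 1438 CPM summed over the list of 17 against 1029 and 837 in replicates 1 and 2, and 27.4 CPM over the B cell list without Ly6d against 12 and 10.3. Before regeneration, old replicate 2 was likewise highest for all 7 genes, with 2219 CPM of macrophage markers against 1628 and 1828. Among the young at 120, replicate 2 was highest for 6 of the 7 genes and had the most macrophage markers, 2545 CPM against 1351 and 2389. Other libraries went the other way. Young replicate 1 before was highest for 6 of the 7 genes with the fewest macrophage markers, 1563 CPM against 1757 and 1759. Old replicate 2 was highest for 5 genes at 96 and at 240, with the fewest macrophage markers of its group, 1150 and 1704 CPM. The part of these markers in the levels of the class II genes was not tested.

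To ask whether the members moved by the same factor, each was divided by Cd74 in the same library, on the log2 scale of CPM + 0.1, and the ratio at 48 was set against the ratio before within each age. The ratios of H2-Aa, H2-Ab1 and H2-Eb1 to Cd74 changed by 0.0051, -0.0023 and 0.039 on average, with p of 0.99, 0.985 and 0.855 in an exact permutation test over the libraries of each age. These averages joined changes of opposite sign in the ages. In young and old they were 0.05 and -0.04 for H2-Aa, 0.10 and -0.10 for H2-Ab1 and -0.22 and 0.29 for H2-Eb1. Single libraries spread widely, with the H2-Ab1 ratio from -1.02 to 0.51 in the young at 48. The ratio of H2-DMa to Cd74 was higher at 48, by 1.63 in the young and 1.59 in the old. Its two-sided exact permutation p was 0.005, the smallest that the 400 assignments allow. All 3 libraries at 48 had a higher H2-DMa ratio than all 3 before in each age. Cd74 itself had fallen without overlap, so any gene that fell less has a higher mean ratio to it. The ratio therefore restates the smaller fall of H2-DMa, and the share of all tested genes with such a separation was not computed. The ratio of Ciita differed by 0.60 (exact permutation p = 0.035) and that of H2-DMb1 by 1.3 (exact permutation p = 0.08). A pseudocount of 1 CPM, which pulls low values together, gave 0.83 for Ciita (exact permutation p = 0.01). It gave 1.71 for H2-DMb1 and 1.68 for H2-DMa, each with an exact permutation p of 0.005. At 0.1 CPM, Benjamini-Hochberg adjustment over the 6 ratios gave exact permutation p of 0.03 for H2-DMa, 0.105 for Ciita and 0.16 for H2-DMb1. At that setting H2-DMa alone passed, and the values at 1 CPM were not adjusted. The ratios were chosen after the levels had been seen.

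**Figure D2:**
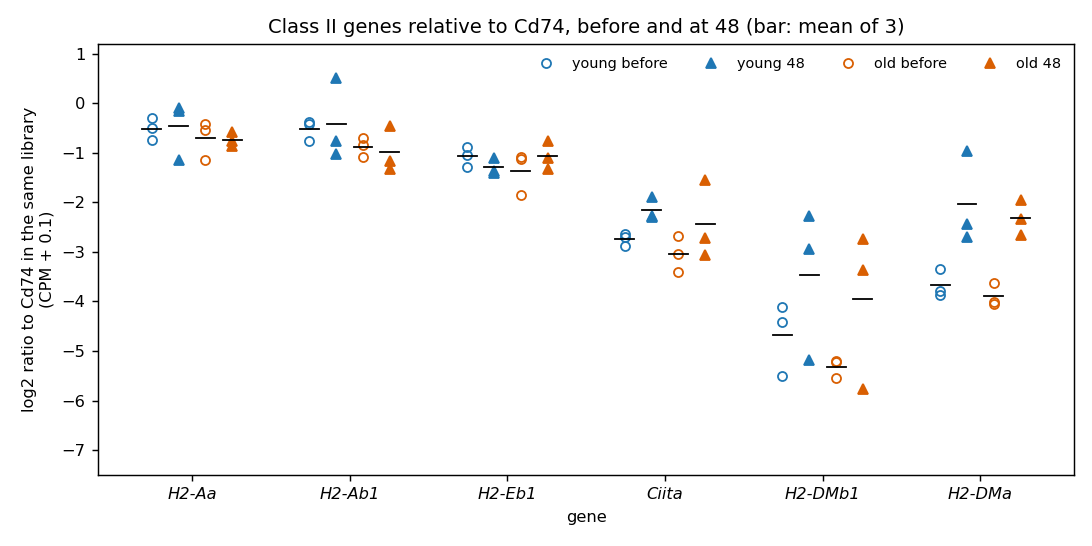
log2 ratio of each class II gene to Cd74 in the same library (CPM + 0.1), open circles before and filled triangles at 48, blue young and orange old, bars for means of 3. The mean ratios of the classical chains moved by -0.22 to 0.29 from before to 48 within an age, while those of H2-DMa lie higher at 48, by 1.63 in the young and 1.59 in the old.

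The 5 members called at 48 in the young stood against 21.9% of all tested genes called in that comparison, and the 5 called in the old against 24.1%. The median log2 change over the 7 members was -2.20 in the young and -2.02 in the old, against -0.01 and 0.01 over all tested genes. All values of 6 members in the young, and of 5 in the old, were below all values before, as held for 20.8% and 16.6% of all tested genes. With the libraries without Y-linked transcripts alone, 2 a group, the young calls of Cd74 (-1.58, adjusted p = 0.0887 by edgeR) and Ciita (-1.09, adjusted p = 0.158) were lost, and Ciita was also lost without young replicate 3 at 48. Fitted on the 6 old libraries alone, H2-Ab1 was the 1 member called, and the adjusted p of the other 4 ran from 0.0579 to 0.0721 by edgeR.

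At 72, 96 and 120 the mean of each of the 7 genes, as a share of its mean before, was higher in the young than in the old, but no difference between the ages passed a test. In the young at 72, H2-Aa, H2-Ab1 and H2-Eb1 were still lower, by log2 changes of -1.74, -1.41 and -1.23, with adjusted p of 0.00629, 0.00541 and 0.0188 by edgeR, which made 3 of 7 members where 17.4% of all genes were called. Cd74 was at 24.5, 27.7 and 10.7 CPM there, a log2 change of -1.16 (SE 0.44) with an adjusted p of 0.0655 by edgeR and 0.0424 by DESeq2. Ciita, H2-DMa and H2-DMb1 stood at changes of -0.31, -0.03 and -0.03. The 3 calls at 72 in the young were lost when the libraries with Y-linked transcripts were left out, with 2 libraries a group remaining and changes of -1.29, -0.85 and -0.56.

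At 96 in the young none of the 7 was called by edgeR, against 1.4% of all genes, 3 members had an unadjusted p under 0.05, and DESeq2 called 0. Fitted on the 6 libraries compared alone, 4 members were called. The 4 genes of the classical chains and the invariant chain were at 46.8% to 55.2% of their mean before, and the libraries at 96 lay below all libraries before for each, as held for 12.3% of all tested genes. At 120 and at 240 in the young, 0 members were called by edgeR, 0 had an unadjusted p under 0.05 and DESeq2 called 0, where 0.581% and 0.246% of all genes were called. Cd74 was at 32.2, 73.9 and 22.0 CPM at 120 and at 46.2, 54.4 and 47.4 CPM at 240. The values at 240 lay within the range before, and those at 120 spread both above and below it.

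In the old, 5 members were lower at 72, 4 at 96 and 4 at 120. The shares of all genes called in these comparisons were 12.4%, 6.82% and 3.87%. Without the libraries that held Y-linked transcripts the calls of H2-Ab1 (log2 change -1.64) and Cd74 (-1.46) at 96 were lost, which left 2. The call of Cd74 at 120 was lost there too (-1.84, adjusted p = 0.0586 by edgeR). Cd74 stayed at 21.8, 20.6 and 19.5 CPM at 72, at 14.2, 29.2 and 28.1 CPM at 96 and at 16.9, 27.0 and 20.7 CPM at 120. None of these 9 libraries reached the lowest old library before, at 57.5 CPM. Such a separation from before held for 15.8%, 13.8% and 10.9% of all tested genes at 72, 96 and 120. The log2 changes of Cd74 were -2.02 (SE 0.44), -1.79 (SE 0.44) and -1.96 (SE 0.44), with adjusted p of 0.00336, 0.0137 and 0.0134 by edgeR.

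H2-Ab1 behaved alike in the old, with 12.3, 10.3 and 9.38 CPM at 72, 9.45, 15.7 and 14.3 CPM at 96 and 11.6, 14.6 and 11.5 CPM at 120. At 120 its log2 change was -1.87 (SE 0.35) with an adjusted p of 0.00271 by edgeR. H2-Aa was lower by -2.60, -2.24 and -1.82 and H2-Eb1 by -1.84, -2.01 and -1.41 on the log2 scale at 72, 96 and 120, and each passed the test. Of these 3 times Ciita passed it at 72, at a change of -1.44 (SE 0.41, adjusted p = 0.0209 by edgeR), with -0.75 at 96 and -0.86 at 120. The Ciita call at 72 was lost without old replicate 2 or 3 before (adjusted p of 0.0965 and 0.0533 by edgeR). It was also lost without old replicate 1 or 3 at 72 (0.0533 and 0.134). With the libraries without Y-linked transcripts alone it was lost too (-1.21, adjusted p = 0.0880 by edgeR). The DM genes were not called at any time, with H2-DMa between -0.78 and -0.37 and H2-DMb1 between -1.08 and -0.85 at 72 to 120.

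The calls at 120 in the old rested on few libraries. Leaving out old replicate 2 before, the library with the highest values, or old replicate 1 at 120 left 1 called member, H2-Ab1, in place of 4, and leaving out old replicate 2 at 120 left 2. The direction did not turn in any of these. At 240 in the old 0 members were called by edgeR, against 0.156% of all genes, 1 had an unadjusted p under 0.05 and DESeq2 called 0. Cd74 was then at 54.1, 63.7 and 42.7 CPM, with 1 library within the range before. H2-Aa, at 25.3, 37.1 and 23.6 CPM, lay below its 3 values before, as held for 7.10% of all tested genes. The other 6 members overlapped with before.

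**Figure D3:**
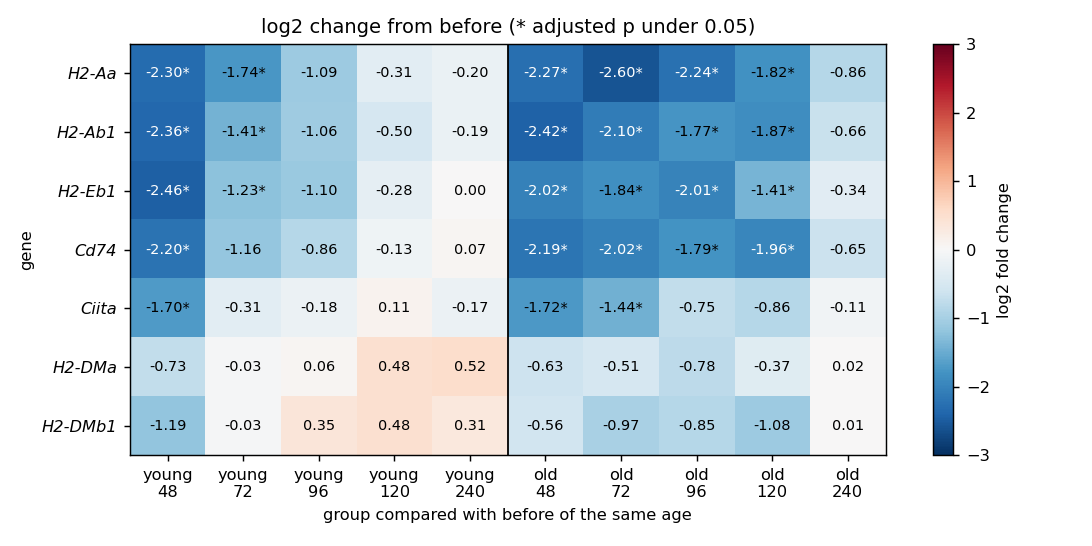
log2 change of each class II gene from before in the same age, young on the left and old on the right, with an asterisk where the adjusted p was under 0.05. Called changes are found at 48 and 72 in the young and from 48 to 120 in the old, in H2-Aa, H2-Ab1, H2-Eb1, Cd74 and Ciita and not in H2-DMa or H2-DMb1.

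Put on a single scale, the 7 genes averaged, as log2(CPM + 1), 3.82 ± 0.29 (SD, n = 3) in the young before and 4.32 ± 0.35 (SD, n = 3) in the old before. From there the young mean stood lower by 1.65 at 48, 0.82 at 72, 0.51 at 96 and 0.12 at 120 and higher by 0.04 at 240. The old mean stood lower by 1.63, 1.48, 1.37, 1.21 and 0.35 at the same times. From the 1 young library with Y-linked transcripts before to the 1 at 48 the difference was -2.44, and between the means of the others -1.25. In the old these were -1.75 and -1.58.

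Age was compared directly at each time. Averaged over the 6 time points, 0 of 7 members differed between old and young by edgeR, 0 had an unadjusted p under 0.05 and DESeq2 called 0, while 5.98% of all genes were called. Their log2 differences, old minus young, ran from -0.30 for H2-DMb1 to 0.16 for H2-DMa. Before regeneration all 7 were higher in the old by point estimate, from 0.26 for H2-DMb1 to 0.83 (SE 0.42) for Cd74. None of these was called by edgeR or DESeq2, none had an unadjusted p under 0.05, and 0.0595% of all genes were called.

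At 48 the differences ran from 0.39 for H2-Ab1 to 0.96 (SE 0.41) for H2-Eb1, whose adjusted p was 0.131 by edgeR. Here 0 members were called by edgeR or DESeq2 and 1 had an unadjusted p under 0.05, against 11.2% of all genes called. At 72, 96 and 240 the members called by either tool, and those with an unadjusted p under 0.05, numbered 0, with 0%, 0.171% and 0.0149% of all genes called by edgeR.

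At 120 all 7 estimates were lower in the old. Cd74 was at 32.2, 73.9 and 22.0 CPM in the young and 16.9, 27.0 and 20.7 CPM in the old, a log2 difference of -0.996 (SE 0.44). H2-Ab1 was at 21.2, 37.2 and 11.99 CPM in the young and 11.6, 14.6 and 11.5 CPM in the old, a difference of -0.92 (SE 0.35) with an adjusted p of 0.36 by edgeR. The ages overlapped for both genes. Of the 7, 0 were called by edgeR or DESeq2 and 3 had an unadjusted p under 0.05, in a comparison where 0% of all genes were called.

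Whether the course itself differed by age was tested as an interaction over the 5 later times, in which 0 members were called by edgeR or DESeq2 and 0 had an unadjusted p under 0.05, against 2.76% of all genes. The change from before was also compared between the ages at each time. At 120 it was lower in the old by -1.83 (SE 0.61) for Cd74 and -1.37 (SE 0.48) for H2-Ab1, both with an adjusted p of 0.585 by edgeR, and 4 members had an unadjusted p under 0.05. No member was called by edgeR or DESeq2 at 48, 72, 96, 120 or 240, and the shares of all genes called were 1.38%, 0%, 0.0149%, 0.00744% and 0%. Apart from the 4 at 120, 0 members had an unadjusted p under 0.05.

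Other class II genes were near the limit of detection. H2-Ob, the beta chain of the DO protein that restrains DM, was the only one with enough counts to be tested, with a mean of 2.17 CPM. At 48 its log2 change was -2.19 (SE 0.57) in the old, with an adjusted p of 0.00618 by edgeR, and -0.81 in the young, which did not pass. H2-Oa, H2-DMb2 and H2-Eb2 averaged 0.33, 0.49 and 0.47 CPM. H2-DMb2 and H2-Eb2 resemble H2-DMb1 and H2-Eb1 in sequence, so reads of these pairs could be shared or split by the counting.

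The genes named from the lists below are the 2 with the highest mean CPM and those called between the ages, except where not reported here. Called genes chosen after their values were seen are named too. Counts called in these lists at 48 are to be read against the 21.9% of all tested genes called in the young and the 24.1% called in the old. Of 8 tested factors that bind class II or class I promoters, 1 was higher and 1 lower in the young, and 2 were higher and 1 lower in the old, with median log2 changes of 0.09 and -0.25. Rfxank, a subunit of the RFX complex that binds the X box, rose by 0.99 (SE 0.25) in the young and 1.65 (SE 0.25) in the old, from means of 8.63 and 9.71 CPM before to 17.2 and 30.5 CPM. It was also higher in the old on average, by 0.48. Nlrc5, the transactivator of class I genes, fell in the young by 0.70 (SE 0.24), and Creb1, a cAMP response factor, fell in the old by 0.43 (SE 0.15).

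Ciita is induced by interferon gamma, and Ifng itself was at 0 in 25 libraries and not tested. Of 15 tested genes of interferon gamma signalling and its targets, 1 was lower at 48 in the young, and 4 were lower and 1 higher in the old, with medians of -0.10 and -0.62. The chemokine gene Cxcl9, a target of interferon gamma, fell by 2.07 (SE 0.68) in the young and 2.7 (SE 0.70) in the old. The kinase gene Jak1 stood at -0.03 in the young and rose by 0.56 (SE 0.13) in the old. Irf8 and Spi1, transcription factors of myeloid and B cells, fell in the old by 0.74 and 0.92.

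The class I pathway presents peptides from inside the cell and is active in hepatocytes too. Of 16 tested, H2-K1 was the 1 gene lower at 48 in the young, and 7 were lower and 2 higher in the old, with medians of -0.37 and -0.69. H2-K1, a class I heavy chain, fell by 0.81 (SE 0.19) and 0.76 (SE 0.19) in young and old, and B2m, the light chain, fell in the old by 1.006 (SE 0.27). Calr, an endoplasmic chaperone, rose in the old by 0.95 (SE 0.22) and stood at -0.17 in the young, and its interaction of age and time was called. On average over time H2-D1 and Tap2 were higher in the old, by 0.41 and 0.39.

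Proteases and other genes of the endosomal route, in which the invariant chain is cut, had median log2 changes of -0.01 and -0.05 at 48 in young and old. Of 13 tested, 4 were higher and 1 lower in the old, and in the young the changes ran from -0.47 to 0.80. Ctsb, a cathepsin, fell in the old by 0.65 (SE 0.16), and Lamp1 stood at -0.07 and -0.05. The tetraspanin gene Cd63 rose in the old by 3.17 (SE 0.69), and Cd63, Cd9, Ctsz and Lgmn were higher in the old on average. Among 5 tested costimulatory genes, Cd83, a marker of mature dendritic cells that also keeps class II at the surface, fell by 2.02 (SE 0.50) in the young and 2.76 (SE 0.49) in the old. Cd86 fell in the old by 1.18 (SE 0.43), and Icosl rose in the young by 2.38 (SE 0.56).

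Markers of the cells that usually carry class II were measured beside these genes. Without Ly6d, which rose more than any other gene of the list and is not restricted to B cells, the 14 B cell markers summed to 24.9 to 35.8 CPM in the young before and 14.5 to 21.9 CPM at 48. In the old they summed to 35.6 to 65.2 CPM before and 10.3 to 27.4 CPM at 48. Of the 12 tested on the whole list, Ly6d alone was called in the young, and in the old Cd79b, Cd22, Ms4a1, Pou2af1 and Bank1 fell while Ly6d rose. Cd79b, part of the B cell receptor, fell by 2.67 (SE 0.58) in the old. The median change of the list was -0.91 in the young and -1.96 in the old.

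The 17 markers of Kupffer cells and macrophages summed to 1563 to 1759 CPM in the young before and 1022 to 1390 CPM at 48. In the old these sums were 1628 to 2219 CPM and 837 to 1438 CPM. In the young 2 were lower, among them the mannose receptor gene Mrc1, and 1 higher, Marco, with a median of -0.28. In the old 8 were lower and 1 higher, with a median of -0.93 and changes from -1.60 to 3.61. Csf1r, the receptor for colony-stimulating factor 1, was among the lower, at -1.28 (SE 0.29). Between the ages, 1 was called higher in the old at 48 and 1 lower in the old on average over time. Slc40a1, the iron exporter, fell in the old by 1.16 (SE 0.31), and Cd5l stood at 0.29 and -0.80.

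Of 9 tested dendritic cell markers, 2 were lower and 1 higher at 48 in the young and 3 were lower in the old, with medians of -0.27 and -0.52. Their sum over 16 genes, carried by Dpp4 and Cst3, which other liver cells also express, was 336 to 384 CPM in the young before and 216 to 301 CPM at 48, and in the old 319.8 to 412 CPM and 164 to 269 CPM. Xcr1, a marker of cross-presenting dendritic cells, fell in the old by 1.80 (SE 0.59). Flt3, which defines dendritic cells, averaged 0.44 CPM and was at 0 in 4 libraries. Cd207, or langerin, was higher in the old on average by 1.83 and had a mean of 24.8 CPM before against 3.80 CPM in the young. Of 10 tested markers of sinusoidal endothelium, the lining of the liver's small vessels, 4 were lower at 48 in the young and 3 in the old, with medians of -0.51 and -0.32, and 5 and 3 were lower at 72. Their sum was 702 to 806 CPM before and 446 to 593 CPM at 48 in the young, and 584 to 835 CPM and 481 to 677 CPM in the old. Kdr, a receptor for vascular growth factor, fell by 0.70 (SE 0.24) in the young and 0.97 (SE 0.25) in the old at 48, and Oit3 fell by 1.11 (SE 0.20) and 0.70 (SE 0.20). In the old at 48 the changes over the 10 endothelial markers ran from -0.97 to 1.08. At that time 1 of them was called higher in the old than in the young, and on average over time 1 was called lower. The mean of the list followed the mean of the members with r = 0.60 over the 36 libraries and 0.08 after group means were subtracted. These values were 0.63 and 0.48 for the macrophage list, 0.73 and 0.70 for the dendritic cell list and 0.81 and 0.59 for the B cell list without Ly6d, and they share libraries, depth and groups. T cell and NK cell markers were near the limit, with Cd3e at 0 in 10 libraries. The part of any of these cells in the changes of the class II genes was not tested.

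**Figure D4:**
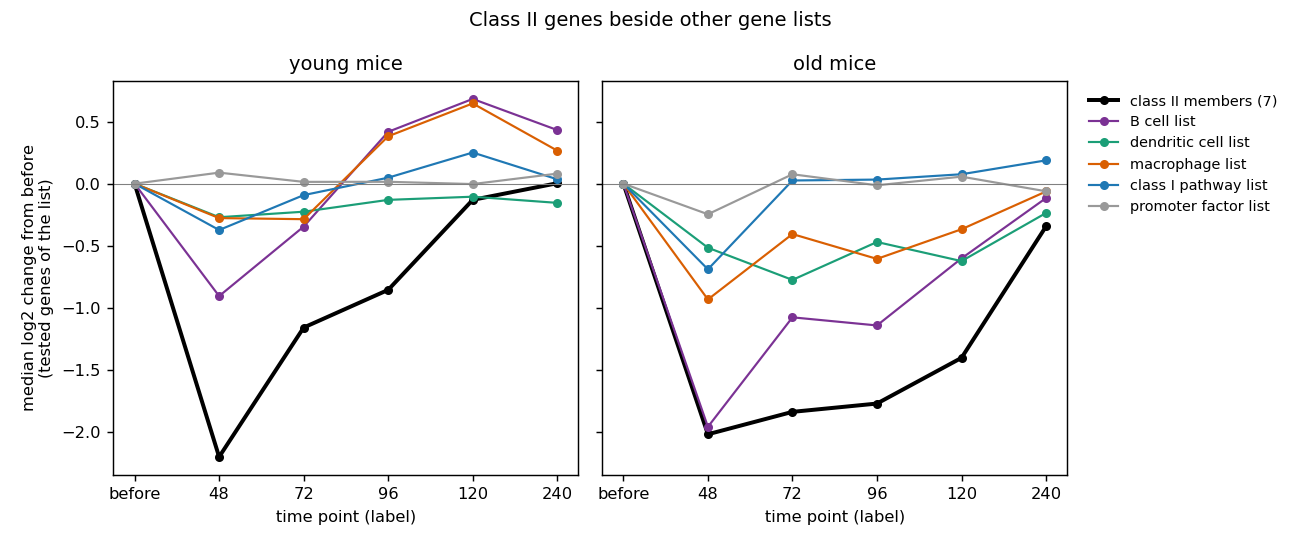
Median log2 change from before over the tested genes of each list, by time point, young left and old right, with the 7 class II genes in black. At 48 the class II median is at -2.20 in the young, below the B cell list at -0.91, and in the old at -2.02, beside the B cell list at -1.96.

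Across the 36 libraries the classical chains and Cd74 followed each other closely. Pearson's r of log2(CPM + 1) was 0.95 for Cd74 and H2-Ab1 and 0.93 for H2-Aa and H2-Ab1, and it was 0.86 and 0.76 after the group means were subtracted. The lowest r was 0.51, between H2-Eb1 and H2-DMb1. Ciita had an r of 0.83 with Cd74, and 0.66 after group means were subtracted. Libraries of a group share their age and time, so the 36 points are not independent and no p is given.

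Outside the 7, the tested genes with the highest r with the mean of the members over the 36 libraries were Fnip2 (0.85), Ltbp4 (0.85), Ncoa3 (0.84), Dll4 (0.84), Rpl22 (0.84), Tnfrsf19 (0.82), Ptprj (0.82), Hcn3 (0.82), Pitpnc1 (0.82) and Il16 (0.82). Within groups, where only differences between replicates count, they were Tyrobp (0.85), Clec7a (0.77), Psd4 (0.75), Atp8a1 (0.75), Tnfaip8l2 (0.74), Ltb (0.74), Itpka (0.73), Csf1r (0.72), Flt3l (0.72) and Axl (0.72). Tyrobp, an adaptor of myeloid receptors, Clec7a, a receptor for fungal glucans, and Csf1r are known from myeloid cells. The order of these values among neighbours was not tested.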

How the data were processed

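The authors deposited, for each library, a table of raw read counts by gene symbol, all whole numbers. Per the submitters' processing notes, STAR 2.7.5b, featureCounts and the build GRCm38 (mm10) were among the tools; the annotation and the use of strand are not given in the sources used here. Per the labels' protocols, total RNA from frozen liver was depleted of ribosomal RNA, so unspliced RNA counts too. Tests used edgeR 4.0.16 (R 4.3.3): TMM scaling, filterByExpr on the 12 groups, 1 robust quasi-likelihood fit over all 36 libraries with 1 mean per group, and Benjamini-Hochberg adjustment over 13436 genes in each comparison, with a call at an adjusted p under 0.05. DESeq2 1.42.0, other scalings and filters, replicate blocks, leaving out libraries and the split by Y-linked transcripts were alternatives, and the procedure was tested on simulated data. Exon lengths came from GENCODE M21 on GRCm38. All 7 members are named in every comparison; from each list the 2 genes of highest mean CPM and those called between the ages are named, except where an item is not reported here, and the 10 genes most like the members' mean. The members and lists were chosen with earlier results of these data known. The comparisons of change from before between the ages at single times and the ratios to Cd74 were added after the data had been seen. Precision is given as SE, and low counts limit H2-DMb1.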

Additional observations from a re-analysis of the deposited data

How the results depend on the processing

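The number of members called kept within 1.5 times its main value in all comparisons under median-of-ratios or total-count scaling, no filter, a mean CPM of at least 1, no robust moderation, a term for Y-linked transcripts and DESeq2. Total-count scaling moved the median of all genes by up to 0.21 (log2), in the young at 72. With only the libraries without Y-linked transcripts, 3 members were called in the young at 48, 0 in the young at 72 and 2 in the old at 96. With only the groups compared in the fit, and so fewer libraries for the spread, 4 were called in the young at 96 and 1 in the old at 48. Leaving out 1 library at a time gave 1 to 4 in the old at 120. Of 3024 single-gene values under alternatives, 2959 kept their side of the threshold, and any turn of sign among them was in uncalled values and by less than their SE. A further 35 lost the call, 8 gained it, 22 uncalled values turned sign by more than their SE, and 0 called values reversed. A replicate block nested in age gave 4 called members in the young at 72 in place of 3, with Cd74 at an adjusted p of 0.0384 by edgeR, and otherwise the same counts, as did a block shared by the ages. Libraries with the same number did not deviate together, with a mean correlation of 0.06 within an age and a range from -0.38 to 0.58, so the numbers are not taken as pairs. In the young, a call of Ciita at 48 was lost without replicate 3 of that group (log2 change -1.38). Changes in total RNA per cell cannot be seen in these values.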
